A study of Mus musculus with 9 samples.

Results

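Transcripts of 10 transporters and receptors of the blood-brain barrier, picked by symbol from the 31053 genes of the count matrices, were measured by single-nucleus RNA sequencing of mouse brain. The 10 genes are Abcb1a, Abcg2, Slco1a4, Slco1c1, Slc2a1, Slc7a5, Slc16a1, Mfsd2a, Tfrc and Lrp8, and all 10 were found. Nuclei came from pooled cortex and hippocampus of 9 male wild-type C57BL/6 mice, with 1 library per mouse and 3 mice per group. The young group (5 months old) and 1 of the aged groups (19 months old) had received AAV-EGFP, and the other aged group (19 months old) AAV-B3GNT3. The virus was injected retro-orbitally 8 weeks before tissue was taken, in a capsid directed at brain vessels and with a short claudin-5 promoter. EGFP is a fluorescent protein, and B3GNT3 is a glycosyltransferase that lengthens O-glycan chains of mucin-domain proteins. The B3GNT3 vector also carried EGFP, so every group had received an EGFP vector and no group was free of virus. The labels do not say which nuclei took up virus.

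Brain endothelial cells (BECs) seal the vessel wall with tight junctions, so that most solutes reach the brain only through proteins in the BEC membranes. Efflux pumps return lipophilic compounds to the blood, solute carriers let in fuels, amino acids, hormones and lipids, and receptors carry ligands across or into the cell. Many of these genes are used as markers of a mature barrier, and loss of barrier properties with age is a long-standing question. The comparisons asked whether transcripts of these genes differed in aged from young BECs, and in aged BECs after B3GNT3 delivery. By staining of isolated microvessels, the study reports more B3GNT3 protein in aged mice given AAV-B3GNT3 than in those given AAV-EGFP. The RNA counts used here did not show the delivered gene. B3gnt3 had 6, 3 and 1 UMIs in BECs of the young mice, 0, 0 and 0 in those of aged AAV-EGFP mice and 0, 2 and 3 in those of aged AAV-B3GNT3 mice. Over whole libraries it had 17, 8 and 6, then 7, 5 and 14, then 11, 11 and 16 UMIs in the same order, and the groups overlapped. Whether transcripts of the vector can be counted as B3gnt3 is not given in the sources used here. A difference with B3GNT3 below is one between the groups as labelled.

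BECs formed 1 cluster of 715 nuclei, in which all 12 listed endothelial markers passed the naming rule. Neither the 10 genes nor the wider transporter lists took part in the clustering. Each library held between 46 and 113 BEC nuclei and between 116189 and 255575 BEC UMIs (unique molecular identifiers, which count RNA molecules). BECs made up 1.16 ± 0.0623% of kept nuclei in young AAV-EGFP mice, 0.842 ± 0.258% in aged AAV-EGFP mice and 1.04 ± 0.234% in aged AAV-B3GNT3 mice (SD, n = 3 each). Of the 715 nuclei, 12 carried a barcode sequence that was also seen in another library. Within BECs the summed endothelial markers ran from 11099 to 12853 CPM (UMI counts scaled to the same total in every library and class) in young AAV-EGFP mice, from 15871 to 23329 in aged AAV-EGFP mice and from 11819 to 13556 in aged AAV-B3GNT3 libraries. The share of BEC UMIs on ribosomal protein genes was 0.668 to 0.946% in the aged AAV-EGFP libraries, against 0.306 to 0.476% in the young and 0.306 to 0.421% in the aged AAV-B3GNT3 libraries. The aged AAV-EGFP libraries therefore stood apart from both other groups in BECs before any transporter was considered. The mean ribosomal protein share was highest in that group in each of the 6 other classes tested as well, and the part of these measures in the results was not tested. Nothing in the labels gives a batch.

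The genes lie on 6 chromosomes of GRCm38 (GENCODE vM21) and are all protein-coding. Abcb1a, which encodes P-glycoprotein, spans chr5:8660077-8748575 on the plus strand. Abcg2, the breast cancer resistance protein, spans chr6:58584523-58695676 on the plus strand. The organic anion transporter genes Slco1a4 (chr6:141805440-141856199, minus strand) and Slco1c1 (chr6:141524368-141570177, plus strand) lie on that chromosome too. Slc2a1 (chr4:119108711-119137983, plus), Lrp8 (chr4:107802261-107876840, plus) and Mfsd2a (chr4:122946850-122961188, minus) share another. Slc7a5 lies at chr8:121881150-121907694 on the minus strand, Slc16a1 at chr3:104638668-104658462 on the plus strand and Tfrc at chr16:32608920-32632794 on the plus strand. Abcb1a has a close paralogue, Abcb1b, and Slco1a4 has close relatives in its gene cluster, so reads from shared stretches may be split or lost. Lrp8 overlaps the antisense genes Lrp8os1 and Lrp8os2. On the same strand Abcb1a overlaps Gm42684, Slc2a1 overlaps Mir1957a, and Slc16a1 overlaps Gm43581 and Gm43585. On the other strand Abcb1a overlaps Gm42686, Slc2a1 overlaps Gm12867 and Gm12868, and Slc7a5 overlaps Gm20388.

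RefSeq (GRCm38.p6) gave a start site for 9 of the 10 genes, and the 250 bases before it fell into 2 kinds. The windows of Abcb1a, Abcg2, Slco1a4 and Slco1c1 had a GC content of 39.2 to 51.2% and 0 to 3 CpG dinucleotides. Those of Slc2a1, Slc16a1, Mfsd2a, Tfrc and Lrp8 had 61.6 to 76.4% GC and 13 to 37 CpGs. The median over 32851 mouse promoter windows was 52.4% GC and 6 CpGs. Both kinds are shown, with Slco1a4 for the first and Slc2a1 for the second, because these 2 genes gave calls in opposite directions once 1 BEC library was left out. Slco1a4 is read on the minus strand (chr6:141856221-141856470) and Slc2a1 on the plus strand (chr4:119108495-119108744), and capitals mark AGGAAG, a core of ETS factor motifs, in Slco1a4 and GGGCGG, the GC box, in Slc2a1, each on either strand.
Slco1a4: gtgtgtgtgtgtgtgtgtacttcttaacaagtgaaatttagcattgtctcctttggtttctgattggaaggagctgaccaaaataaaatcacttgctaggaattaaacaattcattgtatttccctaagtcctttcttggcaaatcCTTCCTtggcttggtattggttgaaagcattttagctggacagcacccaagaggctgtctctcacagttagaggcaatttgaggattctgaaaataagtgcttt
Slc2a1: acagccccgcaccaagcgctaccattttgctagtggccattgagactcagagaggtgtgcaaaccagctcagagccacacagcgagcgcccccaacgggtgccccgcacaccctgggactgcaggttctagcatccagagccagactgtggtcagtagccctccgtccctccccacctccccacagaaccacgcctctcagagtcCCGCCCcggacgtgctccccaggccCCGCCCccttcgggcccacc
AGGAAG or its reverse complement was present in 4 of the 9 windows, namely those of Abcb1a, Abcg2, Slco1a4 and Slco1c1, and in 29.5% of all windows. The GC box was present in 2 of the 9, Slc2a1 and Slc16a1, and in 32.7% of all windows. CTTTGA, a core of TCF/LEF motifs, was in 2 of 9 (Abcb1a and Mfsd2a) and in 13.8% of all windows. ACGTG, a core of hypoxia response elements, was in 3 of 9 (Slc2a1, Slc16a1 and Mfsd2a) and in 16.6% of all windows. None of the 4 motifs is contained in another, and a match is a description of the sequence alone. The RefSeq start used for Abcb1a lies 92986 bases from the GENCODE gene start, and that for Lrp8 624 bases. For the other 7 it lies 0 to 34 bases away.

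Each of the 10 genes had its highest mean level in BECs among the 10 named classes of nuclei. Levels by class are CPM of the raw UMI totals, given as mean ± SD over mice, and they describe the classes without a test, since the classes were formed from the same nuclei. Levels should be read along a gene and not between genes. For 7 genes the lowest BEC library lay above the highest library of every other class. For Abcb1a and Abcg2 among them, the BEC range overlapped that of 1 of the 2 fibroblast clusters when these were taken apart, as given below. For Slco1c1, Slc16a1 and Mfsd2a the range in BECs overlapped that of the next class.

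Slc2a1, which encodes the glucose transporter GLUT1, stood at 1311 ± 648 CPM in BECs (n = 9). The next classes were choroid plexus epithelial nuclei at 32.9 ± 26.5 (n = 6), oligodendrocytes at 24.4 ± 3.74 and astrocytes at 24.0 ± 7.07, whose ranges overlapped. Slc7a5, the large neutral amino acid transporter LAT1, stood at 505 ± 121 CPM in BECs and at 18.1 ± 3.58 in astrocytes, the second class. Slco1a4, which moves organic anions and steroid conjugates, stood at 1918 ± 938 CPM in BECs, 162 ± 75.1 in choroid plexus epithelial nuclei (n = 6) and 63.0 ± 33.3 in fibroblasts. Of all Slco1a4 UMIs in kept nuclei, 76.7% were in BECs. Tfrc, the transferrin receptor that takes up iron, stood at 307 ± 162 CPM in BECs, and its lowest BEC library, at 91.9, lay above the highest library of any other class. Inhibitory neurons (48.8 ± 5.82), pericytes (48.8 ± 16.5) and excitatory neurons (45.7 ± 6.55) followed with overlapping ranges.

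**Figure D1:**
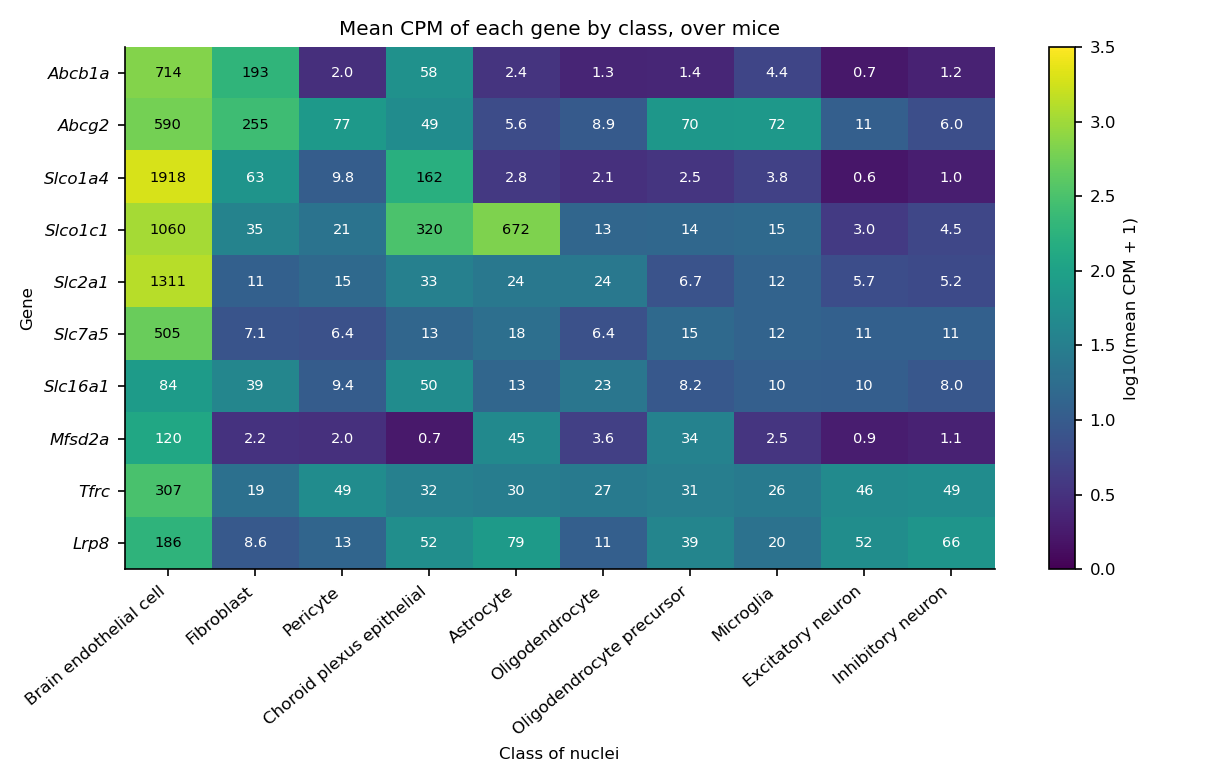
The heat map gives the mean CPM of raw totals of each gene (rows) in each class of nuclei (columns), over 9 mice (6 for choroid plexus epithelial nuclei), with colour on a log10 scale. The BEC column is the highest in every row, and Slco1c1 stands at 672 in astrocytes, its second class.

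The other genes were shared with named classes. Slco1c1, which carries thyroid hormone, stood at 1060 ± 547 CPM in BECs and 672 ± 77.3 in astrocytes, and the ranges overlapped (643 to 2427 and 535 to 783). Astrocytes were far more numerous, and 81.0% of Slco1c1 UMIs in kept nuclei were theirs against 7.29% in BECs. Mfsd2a, the carrier of lysophosphatidylcholine with docosahexaenoic acid, stood at 120 ± 41.7 CPM in BECs, 45.3 ± 21.4 in astrocytes and 34.2 ± 9.78 in oligodendrocyte precursors. Lrp8, a receptor for reelin and apolipoprotein E that neurons also use, stood at 186 ± 38.6 CPM in BECs, 79.0 ± 11.0 in astrocytes and 66.3 ± 14.8 in inhibitory neurons. Excitatory neurons held 54.6% of its UMIs. Slc16a1, the monocarboxylate transporter MCT1 for lactate and ketone bodies, stood at 83.6 ± 30.3 CPM in BECs, 38.9 ± 20.3 in fibroblasts and 23.0 ± 4.84 in oligodendrocytes. Its mean in choroid plexus epithelial nuclei, 49.8 ± 81.4 CPM over 6 libraries, came mostly from aged AAV-EGFP replicate 2, at 213 CPM on 8 UMIs in 10 nuclei, and the other 5 libraries held 0 to 39.4 CPM. That library's choroid plexus nuclei also held the endothelial markers Flt1, Cldn5 and Pecam1 at 613, 107 and 80.0 CPM, and the mean doublet score of the cluster was 0.467. The BEC and fibroblast ranges of Slc16a1 overlapped.

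The efflux pumps were also abundant in 1 of the 2 clusters that the naming rule placed with fibroblasts. Fibroblast nuclei came from 2 clusters, and in the smaller one, of 540 nuclei, Abcb1a stood at 548 ± 144 CPM and Abcg2 at 542 ± 118 (n = 9). The BEC values were 714 ± 249 and 590.5 ± 125, and the ranges over the 9 libraries overlapped for both genes. The endothelial markers were at a low level in this cluster: Cldn5 stood at 2.91 ± 4.80, Flt1 at 14.4 ± 15.9 and Pecam1 at 6.48 ± 6.05 CPM, against 671 ± 296, 5514 ± 2508 and 784 ± 170 in BECs. Slco1a4 and Slco1c1, at 10.5 ± 12.3 and 14.5 ± 12.2 CPM, did not share the pattern. Slc16a1 stood at 104 ± 66.1, a mean above that in BECs (83.6 ± 30.3), with overlapping ranges. The cluster was led by Slc47a1, Slc26a7 and Bnc2 and also by Cdh1, which encodes E-cadherin. In the other fibroblast cluster, of 1191 nuclei and led by Lama1 and Aldh1a2, Abcb1a stood at 6.53 ± 6.17 and Abcg2 at 98.3 ± 30.01 CPM. The mean doublet score, the proportion of artificial doublets around a nucleus, was 0.149 in the smaller cluster, 0.0539 in the larger and 0.0909 in BECs.

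**Figure D2:**
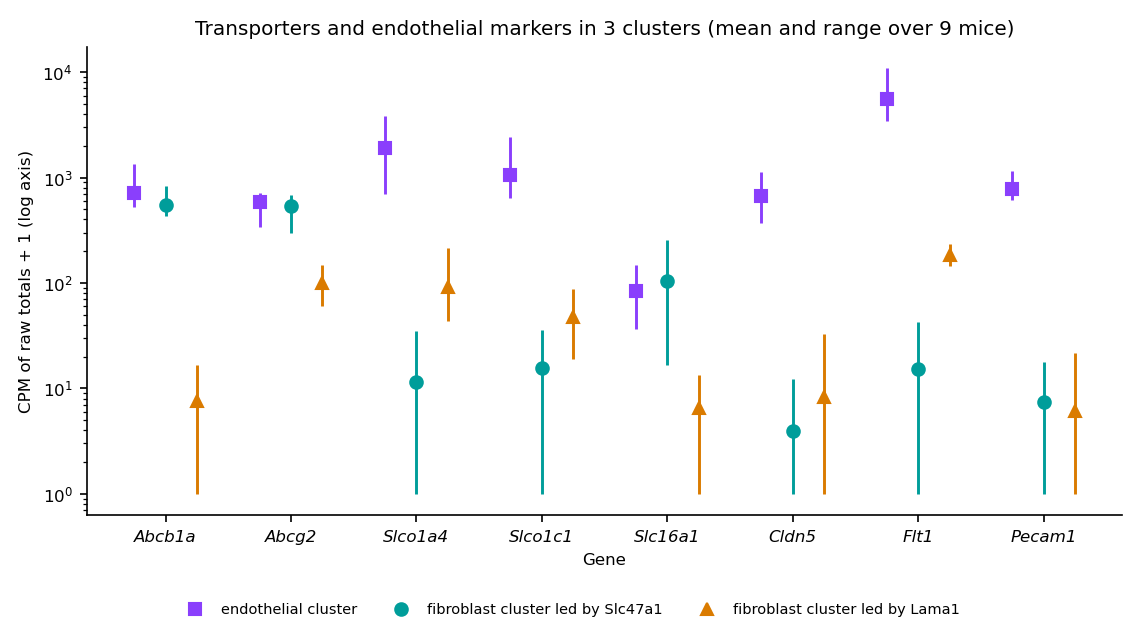
CPM of raw totals plus 1 (log axis) of transporters and of the endothelial markers Cldn5, Flt1 and Pecam1 in the BEC cluster and in 2 fibroblast clusters, with points for means and lines for the range over 9 mice. Abcb1a and Abcg2 in the cluster led by Slc47a1 (548 and 542) overlap the BEC range, and its Cldn5, Flt1 and Pecam1 do not.

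By the rule for likeness, the genes closest to each transporter in mean log2(CPM + 1) over the 10 classes were found by Pearson's r, as a description. Lsr (r = 0.99) and Cdh5 (r = 0.99) were closest to Abcb1a, and Cldn5 (r = 0.97) and Gm9917 (r = 0.96) to Slc2a1. Cdh5 and Cldn5 are among the listed markers that named the BEC cluster, so their high level in BECs follows from the naming rule. Tinagl1 (r = 0.98) and Pltp (r = 0.98) were closest to Slco1a4, and Stard4 (r = 0.96) and Tspan9 (r = 0.94) to Slco1c1. Ube2l6 (r = 0.97) and Gm26765 (r = 0.95) were closest to Abcg2, and Lrp8os2 (r = 0.95), which overlaps its antisense strand, and Gm44995 (r = 0.90) to Lrp8. The remaining r values were 0.92 to 0.98, for A030001D20Rik and Gm9946 with Slc7a5, Cavin2 and Ndufaf3 with Slc16a1, Lmcd1 and Fam181b with Mfsd2a, and Gm49337 and Arhgef15 with Tfrc.

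In BECs none of the 10 genes passed the threshold in any comparison with all 9 mice and the filter on low counts, and with no such filter Slc2a1 passed it with age. Tests used edgeR's quasi-likelihood model on UMI sums per mouse, with an adjusted p under 0.05 over all genes tested as the threshold, and levels in these tests are CPM on TMM library sizes. Between aged and young AAV-EGFP mice 0 of the 10 were called, where 113 of 4260 genes tested (2.65%) were. Between aged AAV-B3GNT3 mice and aged AAV-EGFP mice 0 of 10 were called, where 55 of 4260 (1.29%) were. The ageing and B3GNT3 comparisons share the aged AAV-EGFP mice, with opposite sign. Opposite fold changes of a gene in these comparisons are therefore not independent results. Between aged AAV-B3GNT3 mice and young AAV-EGFP mice 0 of 10 and 0 of 4260 (0%) were called. At an unadjusted p under 0.05, edgeR gave 1 of the 10 genes for ageing, where it gave 17.3% of all genes, and 3 for B3GNT3, where it gave 13.7%. Between aged AAV-B3GNT3 and young mice it gave 0, where it gave 5.61% of all genes, the smallest unadjusted p being 0.206 for Mfsd2a. DESeq2 called 0 of the 10 in each of the 3 comparisons. The groups of 3 did not overlap in CPM for 1 of the 10 in ageing and 2 in B3GNT3, against 18.9% and 15.7% of all genes tested. For aged AAV-B3GNT3 against young mice, where it is given for single genes below, that share of all genes was not counted.

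Aged AAV-EGFP replicate 1 differed from the other 2 mice of its group in most of these genes, and it decided several results. It had the fewest BEC nuclei, 46, and 116189 BEC UMIs, the lowest total. Over all genes tested its median root mean square difference in log2(CPM + 1) from the other 8 libraries was 1.04, against 0.958 and 1.07 for the other aged AAV-EGFP libraries and 0.686 to 0.771 for the remaining 6. By this median it was no farther from the rest than its group. The largest difference between any 2 of the 9 libraries, 1.24, was that between replicates 1 and 3 of the aged AAV-EGFP group. The range of estimated free RNA, the RNA outside nuclei that enters every droplet, was 16.9 to 43.0% of BEC UMIs in this group, 27.0% in replicate 1, and 25.1 to 41.9% in the other groups. The summed capillary markers of BECs were 7324 CPM in replicate 1 and 6110 and 6774 in the other 2 mice, and the summed venous markers 568 against 445 and 464. The summed arterial markers were 370 against 255 and 533, and the whole endothelial list 15871 against 19474 and 23329.

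The fold change of Slco1a4 moved most with that library. Its level was 2346, 2020 and 1880 CPM in young AAV-EGFP mice 1 to 3, 4675, 1064 and 868 in aged AAV-EGFP mice, and 2228, 2982 and 2148 in aged AAV-B3GNT3 mice. The first aged AAV-EGFP mouse lay above all other mice and the other 2 below all other mice. With all mice the log2 fold change was 0.07 ± 0.45 (SE) with age (edgeR adjusted p = 0.960) and 0.16 ± 0.45 with B3GNT3 (adjusted p = 0.921). Without replicate 1 it was -1.13 ± 0.24 with age (adjusted p = 0.00427) and 1.37 ± 0.24 with B3GNT3 (adjusted p = 0.00130), so that both calls turned on 1 library. The sign of the small change with age also turned without young AAV-EGFP replicate 3 (-0.015).

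Slc2a1 showed the opposite arrangement. It stood at 768, 1049 and 1348 CPM in young AAV-EGFP mice, at 812, 2727 and 3247 in aged AAV-EGFP mice, and at 1400.5, 1369 and 1396 in aged AAV-B3GNT3 mice. Aged AAV-EGFP replicates 2 and 3 were the highest of all 9, and replicate 1 lay among the young mice. The 3 aged AAV-B3GNT3 mice lay above every young mouse, by a log2 fold change of 0.40 ± 0.37 (edgeR adjusted p = 0.953). The log2 fold change was 1.11 ± 0.37 with age (unadjusted p = 0.00935, edgeR adjusted p = 0.133) and -0.71 ± 0.37 with B3GNT3 (adjusted p = 0.441). Without replicate 1 it was 1.49 ± 0.23 with age (adjusted p = 4.27e-04) and -1.08 ± 0.23 with B3GNT3 (adjusted p = 0.00628). Without aged AAV-EGFP replicate 3 it was 0.76 and -0.36, and neither was called.

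Tfrc was called in 1 comparison without that library. It stood at 594, 265 and 379.8 CPM in young AAV-EGFP mice, 604, 116 and 168 in aged AAV-EGFP mice and 389, 531 and 182 in aged AAV-B3GNT3 mice, and the 3 groups overlapped. The log2 fold change with age was -0.53 ± 0.50 (edgeR adjusted p = 0.646) with all mice and -1.55 ± 0.43 (adjusted p = 0.0219) without replicate 1. With B3GNT3 it was 0.37 ± 0.51 (adjusted p = 0.811) and 1.402 ± 0.43 (adjusted p = 0.0554). Leaving out some of the other mice made these changes smaller. The change with age was -0.17 without aged AAV-EGFP replicate 2 or young replicate 1 and -0.25 without aged AAV-EGFP replicate 3. That with B3GNT3 was 0.0091, 0.092 and 0.019 without aged AAV-EGFP replicates 2 and 3 and aged AAV-B3GNT3 replicate 2, in that order. Without aged AAV-B3GNT3 replicate 3 the change with B3GNT3 was larger, at 0.71. Without replicate 1, 3 of the 10 genes were thus called with age, where 10% of 4752 genes tested were, and 2 with B3GNT3, where 6.73% were. In that fit the aged AAV-EGFP group holds 2 mice.

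**Figure D3:**
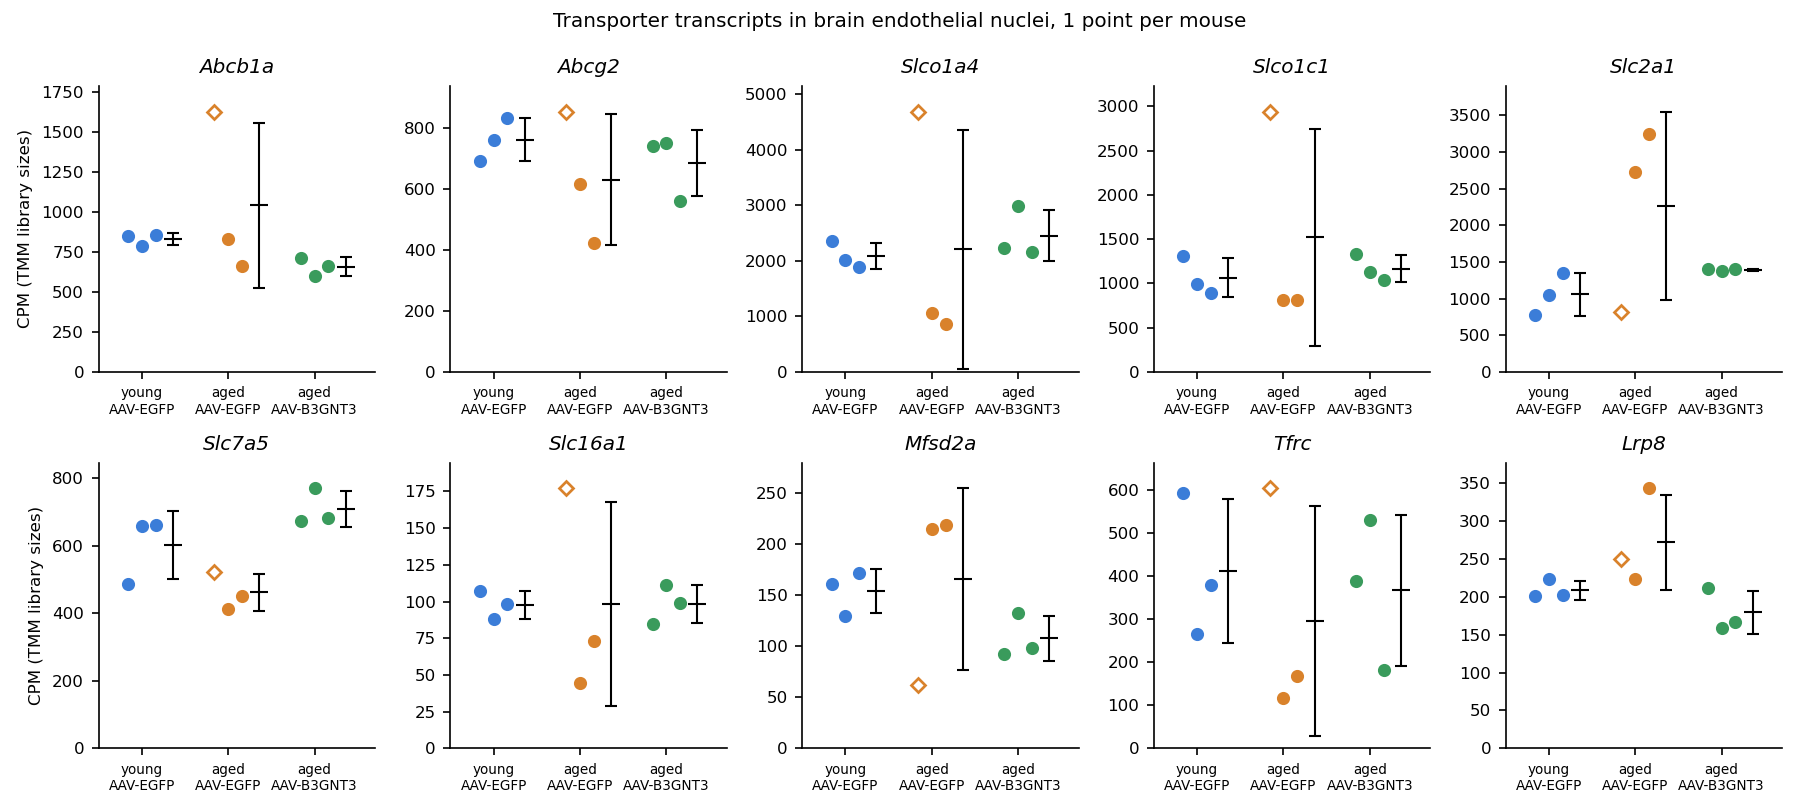
CPM on TMM library sizes of the 10 genes in BECs, with 1 point per mouse and the mean ± SD of each group of 3 in black. The open diamond is aged AAV-EGFP replicate 1, which is the highest point for Slco1a4 (4675), Slco1c1 (2936) and Abcb1a (1624) and the lowest for Mfsd2a (62.5).

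Slco1c1 and Abcb1a were also highest in aged AAV-EGFP replicate 1, and neither was called with or without it. Slco1c1 stood at 1309, 997 and 888 CPM in young AAV-EGFP mice, 2936, 814 and 810.0 in aged AAV-EGFP mice and 1330, 1125 and 1032 in aged AAV-B3GNT3 mice, so that the other 2 aged AAV-EGFP mice were the lowest of the 9. Its log2 fold change with age was 0.50 ± 0.40 (edgeR adjusted p = 0.566) with all mice and -0.42 ± 0.24 (adjusted p = 0.292) without replicate 1. Abcb1a stood at 849, 789 and 858 CPM in young AAV-EGFP mice, 1624, 831 and 664 in aged AAV-EGFP mice and 714, 599.5 and 660.3 in aged AAV-B3GNT3 mice. Its aged AAV-EGFP replicates 2 and 3 lay within the range of the other groups. All 3 aged AAV-B3GNT3 mice lay below all 3 young mice, and the log2 fold change between those groups was -0.34 ± 0.30 (adjusted p = 0.953). Against aged AAV-EGFP it was -0.65 ± 0.30 (unadjusted p = 0.0446, adjusted p = 0.346), and -0.16 ± 0.23 (adjusted p = 0.749) without replicate 1.

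Mfsd2a was lowest in the same library. It stood at 161, 129.8 and 172 CPM in young AAV-EGFP mice, 62.5, 215 and 219 in aged AAV-EGFP mice and 92.0, 133 and 98.7 in aged AAV-B3GNT3 mice, on between 6 and 36 UMIs per library. The log2 fold change was 0.14 ± 0.37 with age (edgeR adjusted p = 0.889) and -0.63 ± 0.39 with B3GNT3 (adjusted p = 0.532). Without replicate 1 it was 0.47 ± 0.30 (adjusted p = 0.350) and -0.96 ± 0.32 (unadjusted p = 0.00736, adjusted p = 0.0790), whereas without aged AAV-EGFP replicate 2 or 3 the change with B3GNT3 was -0.42 or -0.37. In astrocytes too this library was the lowest of 9, at 6.88 CPM on TMM library sizes against 60.4 and 56.0 in the other aged AAV-EGFP mice, and in oligodendrocyte precursors it was the lowest, at 21.4 against 35.5 and 48.7. Slco1c1 in astrocytes was likewise lowest in replicate 1, at 555.9 CPM against 847 and 749.9, whereas in BECs it was highest there.

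Slc7a5 and Lrp8 were the 2 genes whose aged groups did not overlap. Slc7a5 stood at 521, 411 and 452 CPM in aged AAV-EGFP mice and at 672, 769 and 683 in aged AAV-B3GNT3 mice, with young mice at 487, 659 and 662. Every aged AAV-B3GNT3 mouse was above every mouse of both other groups, by a small margin against the young (672 against 662). The log2 fold change was 0.62 ± 0.24 against aged AAV-EGFP (unadjusted p = 0.0215, edgeR adjusted p = 0.249) and 0.24 ± 0.24 against young mice (adjusted p = 0.953). Lrp8 stood at 249.9, 223 and 343 CPM in aged AAV-EGFP mice and at 212, 159 and 167 in aged AAV-B3GNT3 mice, with young mice at 201, 223 and 202. Its aged AAV-EGFP mice were above all young mice by a small margin in 1 case (223.5 against 223.3) and above all aged AAV-B3GNT3 mice. The log2 fold change was 0.39 ± 0.27 with age (adjusted p = 0.479) and -0.61 ± 0.28 with B3GNT3 (unadjusted p = 0.0402, adjusted p = 0.333). Without aged AAV-EGFP replicate 3, its highest mouse, these were 0.18 and -0.39.

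Abcg2 and Slc16a1 had small fold changes with all mice and larger ones without aged AAV-EGFP replicate 1, the highest of the 9 mice for both genes, and were called in neither fit. Abcg2 stood at 693, 763 and 833 CPM in young AAV-EGFP mice, 854, 617 and 423 in aged AAV-EGFP mice and 743, 753 and 562 in aged AAV-B3GNT3 mice, and the log2 fold changes were -0.28 ± 0.27 with age (edgeR adjusted p = 0.654) and 0.13 ± 0.28 with B3GNT3 (adjusted p = 0.881). Without replicate 1 they were -0.58 ± 0.25 (unadjusted p = 0.0336, adjusted p = 0.155) and 0.43 ± 0.26 (adjusted p = 0.348). Slc16a1 stood at 107, 88.3 and 98.0 CPM in young AAV-EGFP mice, 177, 44.7 and 73.0 in aged AAV-EGFP mice and 84.9, 111 and 98.7 in aged AAV-B3GNT3 mice, on 5 to 24 UMIs per library. Its log2 fold changes were -0.05 ± 0.42 (adjusted p = 0.973) and 0.06 ± 0.43 (adjusted p = 0.969). Without replicate 1 they were -0.73 ± 0.42 (adjusted p = 0.295) and 0.74 ± 0.43 (adjusted p = 0.336).

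**Figure D4:**
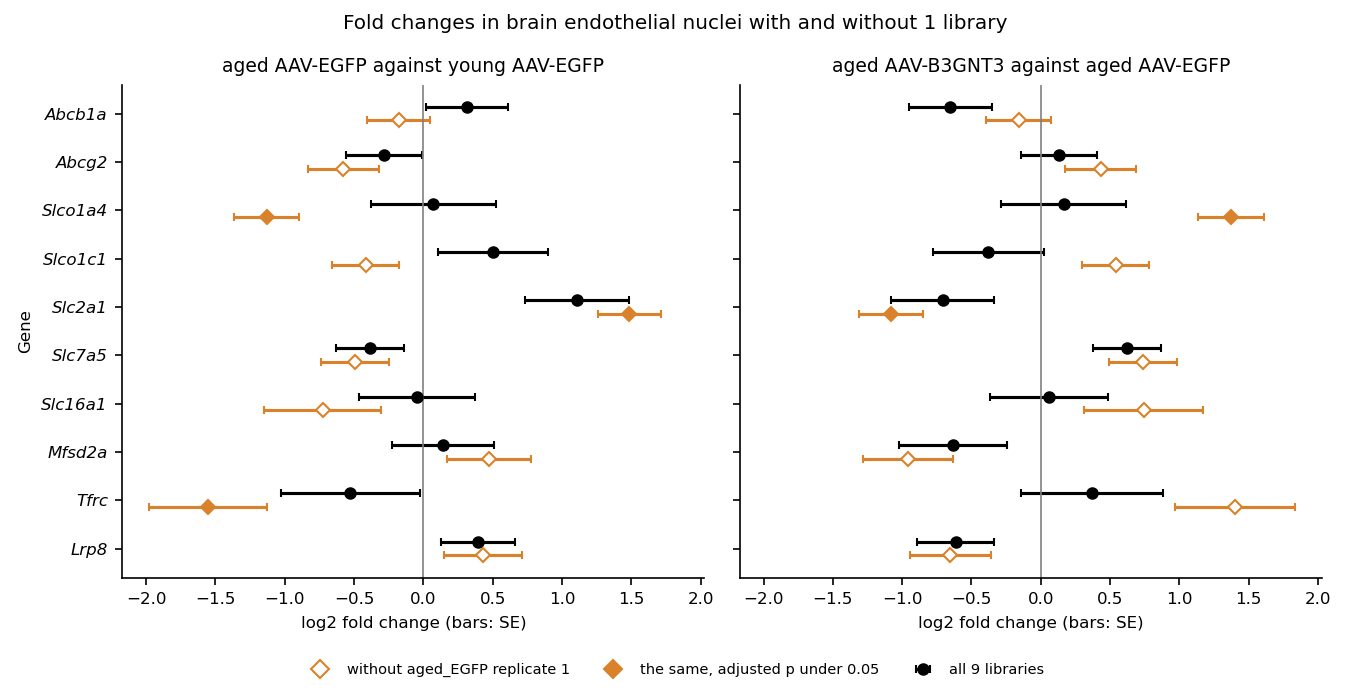
Log2 fold changes with SE of the 10 genes in BECs, with age on the left and with B3GNT3 on the right, from all 9 libraries (black) and without aged AAV-EGFP replicate 1 (orange, filled where the adjusted p was under 0.05). Filled points are Slco1a4, Slc2a1 and Tfrc on the left and Slco1a4 and Slc2a1 on the right, and none of the black points was called.

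Wider lists placed these genes among their pathways in BECs. Over all genes tested, 2.65% were called with age and 1.29% with B3GNT3, and 17.3% and 13.7% had an unadjusted edgeR p under 0.05. Of 9 efflux ABC transporters 4 were tested and 0 were called in either comparison, with 1 and 0 at that unadjusted p. Their median log2 fold change was 0.10 with age and -0.11 with B3GNT3, against 0.04 and -0.02 over all genes. Abcc4, an efflux pump for cyclic nucleotides and drugs, stood at 1219 ± 359 CPM in young AAV-EGFP mice, 1347 ± 401 in aged AAV-EGFP mice and 1308 ± 184 in aged AAV-B3GNT3 mice. Abcc5, a related pump, stood at 174, 177 and 214 CPM in young AAV-EGFP mice against 104, 53.6 and 65.7 in aged AAV-EGFP mice, which did not overlap (log2 fold change -1.35 ± 0.38, edgeR adjusted p = 0.0659). Of 42 other solute carriers 23 were tested and 0 were called, with 1 and 3 at that unadjusted p and median log2 fold changes of 0.08 with age and -0.01 with B3GNT3, against -0.02 over all genes for B3GNT3. The taurine transporter gene Slc6a6, among the highest of the list, stood at 2921, 3279 and 2998 CPM in aged AAV-B3GNT3 mice and at 2728, 1627 and 2641 in aged AAV-EGFP mice (log2 fold change 0.39 ± 0.26, adjusted p = 0.559). The cationic amino acid transporter gene Slc7a1 stood at 592 ± 15.04, 554 ± 22.7 and 531 ± 131 CPM in the 3 groups in the same order. Of 8 caveolae genes 5 were tested and 0 called, with 0 at that unadjusted p and median log2 fold changes of 0.22 with age and -0.12 with B3GNT3. Dnm2 and Cav1 stood at 172 ± 40.3 and 172 ± 73.6 CPM in young, 203 ± 32.4 and 161 ± 59.7 in aged AAV-EGFP mice and 251 ± 47.0 and 179 ± 36.5 in aged AAV-B3GNT3 mice.

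Called genes in the lists were Bsg and Ctnnb1. Bsg encodes basigin (CD147), the chaperone of monocarboxylate transporters, and lies at chr10:79704491-79711969 on the plus strand. It stood at 1188, 1397 and 766 CPM in young AAV-EGFP BECs, 4279.6, 2217 and 3087 in aged AAV-EGFP mice and 799, 854 and 1184 in aged AAV-B3GNT3 BECs, so that every aged AAV-EGFP mouse was above the other 6. It rose with age by 1.51 ± 0.30 on the log2 scale (edgeR adjusted p = 0.0234) and fell by 1.76 on that scale with B3GNT3 (SE 0.30, adjusted p = 0.0175). Both changes rest on the same aged AAV-EGFP mice, so they are not independent of each other. In all 10 classes the mean Bsg level was highest in the aged AAV-EGFP group. In choroid plexus epithelial nuclei that mean was 182 ± 119 CPM over 2 libraries, against 98.1 ± 35.7 over 3 aged AAV-B3GNT3 libraries and 91.9 in 1 young library. Among the 2 was replicate 2, whose choroid plexus nuclei held endothelial markers, as given above. In oligodendrocytes Bsg stood at 37.7 ± 5.89 CPM of raw totals in young mice, 59.9 ± 7.11 in aged AAV-EGFP mice and 34.7 ± 1.33 in aged AAV-B3GNT3 mice. It was called there in both comparisons (log2 fold changes 0.67 ± 0.15 and -0.89 ± 0.15, edgeR adjusted p = 0.00918 and 0.00817). With B3GNT3 it was also called in astrocytes (-0.90 ± 0.21, adjusted p = 0.0243) and oligodendrocyte precursors (-0.95 ± 0.24, adjusted p = 0.0471). Of 14 transcytosis receptors 7 were tested, and Bsg was the 1 called in each comparison, where 2.65% of all genes were called with age and 1.29% with B3GNT3. At an unadjusted edgeR p under 0.05 there were 2 and 1 of the 7, where there were 17.3% and 13.7% of all genes. In that list Igf1r stood at 5387 ± 709.9, 3679 ± 704 and 4529 ± 478 CPM and Insr at 664 ± 193, 716 ± 301 and 1003 ± 244 in young AAV-EGFP mice, aged AAV-EGFP mice and aged AAV-B3GNT3 mice, and neither was called.

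Ctnnb1, which encodes the Wnt effector β-catenin, lies at chr9:120929216-120960507 on the plus strand. It stood at 241, 265 and 300.1 CPM in young AAV-EGFP BECs, 562, 501 and 438 in aged AAV-EGFP mice and 276, 212 and 182 in aged AAV-B3GNT3 BECs, on 24 to 60 UMIs per library. It fell by 1.16 on the log2 scale with B3GNT3 (SE 0.26, edgeR adjusted p = 0.0408), and its difference with age was 0.89 ± 0.25 (adjusted p = 0.0659). It was the 1 gene called of 22 tested in the list of 23 Wnt and barrier programme genes, where 1.29% of all genes were called with B3GNT3. At an unadjusted edgeR p under 0.05 there were 1 of the 22 with age and 3 with B3GNT3, where there were 17.3% and 13.7% of all genes. Lef1, a Wnt target and partner of β-catenin, stood at 1668 ± 116, 1562 ± 676 and 1738 ± 521 CPM in the 3 groups, and Nxn at 611 ± 115, 596 ± 258 and 704 ± 213. Bsg and Ctnnb1 were highest in the aged AAV-EGFP group, as were the ribosomal protein share and the summed endothelial markers of the BEC libraries given above. Within that group both genes were highest in replicate 1, where the summed endothelial markers were lowest. Summed neuron markers were 3387 to 4462 CPM in BECs of young mice, 1744 to 3034 in those of aged AAV-EGFP mice and 2997 to 4310 in those of aged AAV-B3GNT3 mice, and summed microglia markers 105 to 147, 203 to 219 and 101 to 267. The part of these measures was not tested. Bsg and Ctnnb1 lost their calls after free RNA was subtracted or when only the 2 groups compared were fitted, settings in which 0 to 5 genes were called at all. The ageing call of Bsg was also lost without any 1 of young AAV-EGFP replicates 1, 2 and 3 or aged AAV-EGFP replicate 3 (edgeR adjusted p = 0.0663 to 0.0981), with log2 fold changes of 1.22 to 1.70 over the 9 fits, and its B3GNT3 call without aged AAV-B3GNT3 replicate 1 or 2 (adjusted p = 0.157 and 0.148), with -1.94 to -1.47. The call of Ctnnb1 was kept when aged AAV-EGFP replicate 1 was left out (adjusted p = 0.0206) and lost when any other 1 of the 9 mice was (adjusted p = 0.0664 to 0.204), and its log2 fold change was -1.30 to -1.01 over these fits.

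Outside BECs the 10 genes were tested in 6 classes, and 7 pairs of gene and class were called with age, all lower in aged AAV-EGFP mice. Pericytes and fibroblasts, with 47 to 145 and 81 to 321 nuclei per mouse, were not tested. Called were 1 of 10 in astrocytes, where 12.5% of 12715 genes were called, 2 of 10 in excitatory neurons (14.2% of 17088), 1 of 10 in inhibitory neurons (3.18% of 15328) and 3 of 9 in oligodendrocytes (21.5% of 13151). In oligodendrocyte precursors 0 of 8 were called (4.51% of 9928) and in microglia 0 of 3 (2.62% of 8324). With B3GNT3 0 were called in any of the 6 classes, where 5.5%, 2.43%, 0.0391%, 9.76%, 1.28% and 0.324% of genes were called in astrocytes, excitatory neurons, inhibitory neurons, oligodendrocytes, oligodendrocyte precursors and microglia. At an unadjusted p under 0.05 edgeR gave 0, 3, 3, 3, 1 and 0 of these genes with B3GNT3 in the same classes, where it gave 22%, 23%, 17.8%, 27.4%, 14.1% and 10.2% of all genes. DESeq2 called 2, namely Slco1c1 in inhibitory neurons and in oligodendrocytes, where it called 2.52% and 10.2% of genes, and 0 in astrocytes (5.89%), excitatory neurons (8.54%), oligodendrocyte precursors (1.04%) and microglia (0.212%).

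Lrp8 in excitatory neurons was the pair with the most UMIs, 925 to 1704 per library. It stood at 60.7, 60.6 and 62.6 CPM on TMM library sizes in young AAV-EGFP mice, 41.8, 45.0 and 38.6 in aged AAV-EGFP mice and 51.2, 59.3 and 44.9 in aged AAV-B3GNT3 mice. All aged AAV-EGFP mice lay below all young mice, and it fell with age by 0.55 on the log2 scale (SE 0.11, edgeR adjusted p = 0.0120). After free RNA was subtracted it fell by 0.57 (adjusted p = 0.0134), and without young AAV-EGFP replicate 3 the difference was -0.54 and no longer passed (adjusted p = 0.0591). With B3GNT3 the log2 fold change was 0.31 ± 0.11 (adjusted p = 0.126). The ribosomal protein share of excitatory neuron UMIs was 0.0608 to 0.0628% in young mice, 0.0695 to 0.0986% in aged AAV-EGFP mice and 0.0628 to 0.0696% in aged AAV-B3GNT3 mice, and its part in this result was not tested. It was 0.118 to 0.143%, 0.188 to 0.280% and 0.123 to 0.146% in oligodendrocytes, 0.122 to 0.141%, 0.154 to 0.212% and 0.112 to 0.123% in astrocytes, and 0.0745 to 0.0807%, 0.0864 to 0.113% and 0.0707 to 0.0861% in inhibitory neurons, in the same order of groups, and its part in the calls there was not tested either. The ageing change in BECs minus that in excitatory neurons was 0.76 on the log2 scale in a joint fit of both classes with mouse as a block, whose scaling and gene set differ from those of the separate fits (unadjusted p = 0.0119, adjusted p = 0.177 over 4188 genes), so the 2 classes were not shown to differ. In inhibitory neurons Lrp8 stood at 96.9, 54.2 and 75.9 CPM in young and at 59.97, 64.0 and 47.0 in aged AAV-EGFP mice (log2 fold change -0.41 ± 0.19, adjusted p = 0.202).

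The other calls were of low levels in classes that are not the main source of the gene. Slco1c1 fell by 1.60 on the log2 scale in excitatory neurons (SE 0.36, edgeR adjusted p = 0.0169), by 1.92 in inhibitory neurons (SE 0.34, adjusted p = 0.0308) and fell by 1.303 in oligodendrocytes (SE 0.32, adjusted p = 0.0127). In oligodendrocytes it stood at 21.8, 16.6 and 14.0 CPM of raw totals in young AAV-EGFP mice, 7.35, 9.20 and 4.91 in aged AAV-EGFP mice and 17.8, 18.8 and 8.89 in aged AAV-B3GNT3 mice. The level that estimated free RNA alone would give in the same nuclei was 24.9, 16.8 and 12.02 CPM in young, 5.43, 5.96 and 5.48 in aged AAV-EGFP mice and 15.5, 23.5 and 7.64 in aged AAV-B3GNT3 mice. The ratio of measured to estimated level was above 1 in some mice of each group and below 1 in others. In excitatory neurons Slco1c1 stood at 2.55 to 5.59, 1.08 to 1.59 and 1.77 to 4.49 CPM in the 3 groups in that order, against a free RNA estimate of 4.005 to 5.53, 1.79 to 2.31 and 2.59 to 5.15. In inhibitory neurons it stood at 4.81 to 10.6, 1.36 to 2.19 and 3.71 to 5.96 CPM, against 3.72 to 8.68, 1.41 to 3.12 and 2.79 to 4.97. Estimated free RNA was 7.196 to 9.76%, 4.70 to 6.62% and 6.12 to 8.69% of UMIs in excitatory neurons and 9.06 to 11.3%, 3.70 to 8.92% and 7.38 to 9.35% in inhibitory neurons, so that it was lower in every aged AAV-EGFP mouse than in every young mouse. In astrocytes, the main source, the measured levels were 535 to 783 CPM against a free RNA estimate of 3.56 to 19.04, and the ageing change was 0.08 ± 0.15 on the log2 scale (adjusted p = 0.784). Astrocytes were 14.8 ± 1.74% of kept nuclei in young AAV-EGFP mice, 8.73 ± 0.324% in aged AAV-EGFP mice and 12.5 ± 4.34% in aged AAV-B3GNT3 mice, and estimated free RNA was 29.3 to 33.0%, 14.4 to 17.3% and 24.0 to 34.9% of oligodendrocyte UMIs in the 3 groups.

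Lrp8 in oligodendrocytes fell by 1.21 on the log2 scale with age (SE 0.27, edgeR adjusted p = 0.00754). It stood at 15.4, 15.7 and 12.3 CPM of raw totals in young, 7.61, 7.59 and 3.78 in aged AAV-EGFP mice and 10.1, 12.5 and 10.0 in aged AAV-B3GNT3 mice, and the free RNA estimate, at 6.07 to 20.8 over the 9 mice, was above the measured level in all but aged AAV-EGFP replicates 1 and 2. Abcg2 fell by 1.25 in astrocytes (SE 0.35, adjusted p = 0.0308), on 4 to 36 UMIs per library, and by 1.13 in oligodendrocytes (SE 0.37, adjusted p = 0.0472), on 18 to 75. In astrocytes Abcg2 stood at 7.47, 8.42 and 9.98 CPM of raw totals in young mice, against a free RNA estimate of 4.66, 4.06 and 3.96, and at 4.42, 1.82 and 4.69 in aged AAV-EGFP mice, against 1.81, 2.37 and 1.43. Leaving out 1 mouse took away 6 of the 7 calls in at least 1 fit, and Lrp8 in oligodendrocytes kept its call in all 9. Abcg2 lost its call in astrocytes without young AAV-EGFP replicate 2 or 3 or aged AAV-EGFP replicate 2 or 3 (edgeR adjusted p = 0.0678 to 0.123), and in oligodendrocytes without any young mouse, aged AAV-EGFP replicate 2 or 3 or aged AAV-B3GNT3 replicate 3 (adjusted p = 0.0558 to 0.177). Slco1c1 lost its call in oligodendrocytes without aged AAV-EGFP replicate 3 (adjusted p = 0.0602), in excitatory neurons without young replicate 2 or aged AAV-EGFP replicate 2 or 3 (0.0504 to 0.0574), and in inhibitory neurons without young replicate 3, aged AAV-EGFP replicate 2 or 3 or aged AAV-B3GNT3 replicate 1 (0.0562 to 0.136). The log2 fold changes over the 9 fits were -1.43 to -0.95 and -1.69 to -0.78 for Abcg2 in astrocytes and oligodendrocytes, and -1.56 to -1.06, -1.86 to -1.40 and -2.10 to -1.48 for Slco1c1 in oligodendrocytes, excitatory and inhibitory neurons. The share of all genes called in those fits was 5.24 to 18% in astrocytes, 10.9 to 28.3% in oligodendrocytes, 1.4 to 21.1% in excitatory neurons and 0 to 11.2% in inhibitory neurons. After subtraction of free RNA 3 of the 7 pairs still passed the filter on low counts, and of these Lrp8 in excitatory neurons was called. Slco1c1 in inhibitory neurons had a log2 fold change of -1.81 (adjusted p = 0.379) and Abcg2 in oligodendrocytes one of -1.402 (adjusted p = 0.212), where 0.467% and 8.95% of all genes were called. In excitatory neurons 13.4% were called. No difference between BECs and another tested class passed the threshold for any of the 10 genes in either comparison. The smallest adjusted p was 0.0603, for Slco1c1 with age in BECs against inhibitory neurons (difference 1.98 on the log2 scale in the joint fit).

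**Figure D5:**
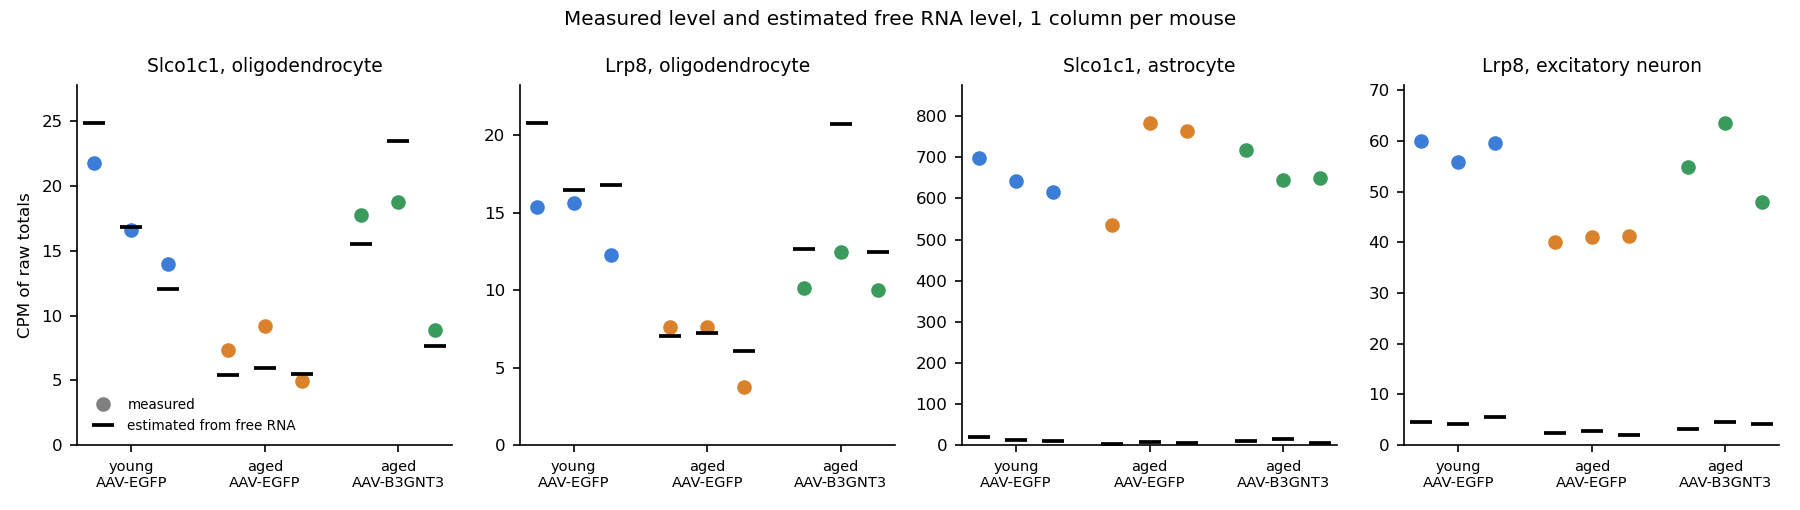
Measured CPM of raw totals (coloured points, 1 column per mouse) and the level estimated from free RNA (black bars) for Slco1c1 and Lrp8 in oligodendrocytes, Slco1c1 in astrocytes and Lrp8 in excitatory neurons. In oligodendrocytes the points lie at heights like those of the bars, above them in some mice and below in others (Slco1c1 4.91 to 21.8), whereas in astrocytes and excitatory neurons they lie far above them.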

How the data were processed

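Single-nucleus libraries (10x Genomics 3′ kit, version 3.1) were made by the authors from Hoechst-stained nuclei sorted as singlets. The deposited values are raw UMI counts of each gene in each nucleus, and the authors obtained them with Cell Ranger against mm10 (GRCm38), with no removal of free RNA or doublets. The submitters' processing notes give Cell Ranger 4.0.0 and the matrix headers 7.2.0, and whether intronic reads were counted was not determined. The study's own removal of free RNA and doublets and its integration of libraries are not in these values.

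Of 77823 barcodes, 74895 had 200 to 5000 genes and at most 10% mitochondrial UMIs, and 70367 nuclei remained after removal of likely doublets at a preset rate that grew with the number of barcodes and marked 5.07 to 8.21% per library. Library totals were 47332047 to 79964605 UMIs. Among all barcodes, 734 sequences occurred in more than 1 library. Nuclei were clustered with 15 principal components of 2000 variable genes by the Leiden method at resolution 0.3, without the transporter lists. Clusters were named from marker lists, with at least 3 markers at 2 times the median cluster and in 10% of nuclei.

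Counts were summed per mouse and class. Genes passing filterByExpr at a minimum count of 10 were tested in edgeR 4.0.16 (quasi-likelihood, two-sided) after TMM scaling. Each class had 1 fit with all 9 mice, and p-values were adjusted by the Benjamini-Hochberg method. The SE was derived from the F statistic. The difference between BECs and another class was tested as an interaction. Samples with under 10 nuclei of a class were left out of levels. DESeq2 1.42.0 and the other settings are given at the end. The script was tested on simulated data. Nothing says that nuclei of a mouse were prepared more than once, so the spread is between mice. Free RNA was estimated per library and class as the median ratio of markers of other classes (15 neuron and oligodendrocyte genes in BECs) to the library's summed profile. SD and SE cover these 3 mice per group, and the depth of 5 to 24 UMIs per library limits Slc16a1 most.

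The genes, lists and comparisons were chosen with earlier results of these data known. Named are the 10 genes, list genes called in BECs, the 2 uncalled genes per list with the highest mean CPM, and the 2 genes most like each transporter. No protein sequence was used here.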

Additional observations from a re-analysis of the deposited data

How the results depend on the processing

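With all 9 mice, 0 of the 10 transporters were called in BECs under DESeq2, RLE size factors, free RNA subtracted, no doublet removal, resolution 1.0 and no upper limit on genes, and 0 with only the 6 mice of the 2 groups compared. With no filter on low counts 1 was called with age (Slc2a1, 1.03 on the log2 scale, edgeR adjusted p = 0.0200). Without 1 mouse at a time 0 to 3 were called with age and 0 to 2 with B3GNT3, and each of these calls came without aged AAV-EGFP replicate 1. Between aged AAV-B3GNT3 and young AAV-EGFP mice 0 were called in every setting run. Over all genes in BECs, 113 were called with age and 55 with B3GNT3. The counts were 0 and 0 after free RNA was subtracted (with 376 and 368 at an unadjusted p under 0.05), 314 and 129 without doublet removal, 264 and 159 with no filter on low counts, and 0 and 5 with only the groups compared (610 and 406 unadjusted). With no upper limit on genes they were 44 and 37, and without 1 mouse at a time 0 to 477 and 0 to 320. In other classes 7 calls with age became 1 after free RNA was subtracted, when 3 of the 7 pairs were still tested, and ranged from 2 to 9 without 1 mouse. The call in astrocytes was also lost under DESeq2 (10.1% of all genes called) and without doublet removal (12.2%). In these 2 settings the counts in the other classes did not change. With B3GNT3 0 became 2 with DESeq2, and 0 to 3 without 1 mouse.

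The log2 fold change of Slco1a4 with age in BECs, 0.07 with all mice, was -0.0011 with DESeq2, -0.16 after free RNA was subtracted, -0.054 with no filter and -0.0087 with no upper limit on genes. That of Slc16a1 with age was 0.13 at resolution 1.0 and 0.027 with no upper limit, and with B3GNT3 -0.058 with no upper limit. That of Mfsd2a with age was -0.11 after free RNA was subtracted, and that of Tfrc with B3GNT3 -0.025 with no upper limit. Without 1 mouse at a time the log2 fold changes with age ran from -0.18 to 0.55 for Abcb1a, -1.13 to 0.44 for Slco1a4, -0.42 to 0.79 for Slco1c1, -0.73 to 0.27 for Slc16a1 and -0.11 to 0.47 for Mfsd2a. With B3GNT3 they ran from -0.083 to 0.43 for Abcg2, -0.20 to 1.37 for Slco1a4, -0.66 to 0.54 for Slco1c1 and -0.25 to 0.74 for Slc16a1. The cause of these changes was not tested, except that fewer mice or genes entered some fits.

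The labels do not say whether replicate numbers pair the mice, and the correlations do not settle it, because their ranges overlap. Deviations of same-numbered BEC libraries from their group means correlated at -0.03 to 0.18 (median 0.058). Those of other pairs correlated at -0.17 to 0.11 (median -0.041). With the replicate block 0 of the 10 genes were called in BECs, where 135 genes were called with age and 65 with B3GNT3. The log2 fold change of Slco1a4 with age was -0.20. In other classes 1 transporter call was made with B3GNT3 (Slco1c1 in oligodendrocytes). In the fit without the block 9.76% of all genes tested in oligodendrocytes were called with B3GNT3. With age and the block, 0 transporters were called in inhibitory neurons (0.0652% of all genes) and 2 in oligodendrocytes (21.9%). There was 1 call in astrocytes (11.4%), 2 in excitatory neurons (12.4%), and 0 in oligodendrocyte precursors (5.42%) and microglia (1.44%).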
